A study of Mus musculus with 12 samples.

Results

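The TNF superfamily ligands and receptors described here are 10 genes, 4 ligands (Tnf, Ltb, Tnfsf10 and Tnfsf13b) and 6 receptors (Tnfrsf1a, Tnfrsf1b, Fas, Cd40, Tnfrsf12a and Tnfrsf11b), chosen by name and matched by symbol to mouse GRCm38 gene identifiers. They were read in cerebral vessels among 54119 genes summed, of which 19150 passed the filter on low counts, and 10 of the 10 members passed it. RNA was sequenced from vessels isolated from the forebrain after the mice were perfused with PBS and the meninges were taken off. All mice were wild type C57BL6 animals of 2 to 3 months. The mice received LPS (lipopolysaccharide, a component of the outer membrane of Gram-negative bacteria) by intraperitoneal injection at 10 mg/kg, and vessels were collected 15 min, 30 min or 4 h later. The 4 groups (PBS and the LPS groups of 15 min, 30 min, and 4 h) had 3 libraries each, and each library pooled 2 mice, 1 male and 1 female. All 3 times were compared with the same PBS libraries, and the time from PBS injection to collection is not given in the sources used here. Vessels were sequenced whole, so every value is an average over endothelial cells, mural cells and any cells attached to or inside the vessels. In such bulk samples fewer cells of a type and less RNA per cell cannot be told apart.

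TNF superfamily ligands are trimeric proteins, mostly made as membrane proteins, and some are released from the cell surface by proteases. Their receptors form clusters on the target cell and recruit either TRAF adaptors, which lead to NF-κB and stress kinase signalling, or death domain adaptors, which can lead to apoptosis. In vessels, TNF is known as an early cytokine of the response to LPS that activates the endothelium, and several receptors of the family are themselves known targets of NF-κB.

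Promoter windows from RefSeq (GRCm38.p6, 250 bases before the annotated start and 50 bases from it on) matched 8 of the 10 members. Those of Tnf, Ltb and Fas are shown because they held a match in the members with the largest early rise, the largest early difference below PBS and an increase at each time. Each is printed 5′ to 3′ on the strand of its gene, and capitals mark the match. Tnf lies on the minus strand (chr17:35201958-35202257), Ltb on the plus strand of the same chromosome (chr17:35194257-35194556) and Fas on the plus strand (chr19:34290409-34290708).
Tnf: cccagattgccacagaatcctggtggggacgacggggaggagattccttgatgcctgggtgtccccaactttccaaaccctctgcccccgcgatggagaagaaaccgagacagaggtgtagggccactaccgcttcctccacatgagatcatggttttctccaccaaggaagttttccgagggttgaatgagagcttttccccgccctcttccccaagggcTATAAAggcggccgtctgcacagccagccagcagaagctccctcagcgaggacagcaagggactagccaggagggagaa
Ltb: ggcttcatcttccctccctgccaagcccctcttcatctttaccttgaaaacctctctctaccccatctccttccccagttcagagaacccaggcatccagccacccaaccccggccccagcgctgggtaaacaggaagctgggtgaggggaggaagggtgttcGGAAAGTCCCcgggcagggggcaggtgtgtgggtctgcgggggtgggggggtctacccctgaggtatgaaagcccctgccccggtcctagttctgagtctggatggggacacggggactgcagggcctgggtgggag
Fas: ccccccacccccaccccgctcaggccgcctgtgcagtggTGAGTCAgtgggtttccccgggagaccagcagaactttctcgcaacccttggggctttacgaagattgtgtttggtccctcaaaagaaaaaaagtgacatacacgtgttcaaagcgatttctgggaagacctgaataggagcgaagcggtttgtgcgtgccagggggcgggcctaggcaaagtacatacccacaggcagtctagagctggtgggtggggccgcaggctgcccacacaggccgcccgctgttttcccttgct
The Tnf window held TATAAA, the core of the TATA box, with its first base 29 bases before the start. The Ltb window held the NF-κB consensus on the opposite strand, with its first base 87 bases before the start. The Fas window held the AP-1 consensus (TGAGTCA or TGACTCA) 211 bases before the start. The RefSeq start of Ltb lies downstream of its GENCODE start, so this window lies partly inside the GENCODE gene model. Both strands were searched, and of 32851 promoter windows 4.51% held the NF-κB consensus, 5.20% the AP-1 consensus and 13.6% TATAAA. No other member window held the NF-κB consensus or TATAAA, and the windows of Tnfsf13b were the only others with the AP-1 consensus. A match describes the letters in this window and was not tested as a binding site.

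Libraries held 18.3 to 25.9 M estimated fragments. Levels are given as CPM, counts scaled to library size with TMM factors, or as TPM, which is per transcript length and was used wherever genes were compared with each other. A difference is a log2 fold change with its standard error (SE), and a gene was called changed where the edgeR quasi-likelihood test against a change of at most 1.5-fold gave p below 0.05 after Benjamini-Hochberg adjustment across all tested genes. The endothelial markers Pecam1, Cdh5, Cldn5, Slc2a1, Tek, Kdr and Flt1 summed to 9024 to 9318 CPM in PBS and to 6009 to 6070 CPM at 4 h, when 5 of the 7 were called lower and 1 higher. Scaling by library size alone shifted the median of all genes by -0.02 for 15 min, -0.16 for 30 min and -0.70 for 4 h on the log2 scale against PBS, and the share of calls that were higher then went from 82.4% to 60.8% at 30 min and from 58.0% to 18.2% at 4 h. Markers of several other cell types also moved with time, and their values stand beside the results below.

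Against PBS, 3 members were called higher at all 3 times (Tnf, Fas and Tnfrsf12a), 1 was lower at 15 and 30 min and higher at 4 h (Tnfsf10), 3 were called at 4 h and at neither earlier time (Tnfrsf1a, Tnfrsf1b and Cd40), and 3 were called at none (Ltb, Tnfsf13b and Tnfrsf11b). At 15 min 4 of 10 members were called, 3 higher and 1 lower, where 4.25% of all genes were called (3.35% higher, 0.898% lower). At 30 min the count was again 4, 3 higher and 1 lower, against 4.62% of all genes (3.8% higher, 0.815% lower). At 4 h 7 were called, all higher, against 33% of all genes (19.1% higher, 13.9% lower). The median member difference was -0.22 for 15 min, 0.22 for 30 min and 2.50 for 4 h on the log2 scale, beside medians over all genes of -0.0021, -0.010 and -0.0098. Libraries of the groups did not overlap for 9 members at 15 min, where 49.3% of all genes did not overlap, for 8 at 30 min (46.7%) and for 8 at 4 h (70.9%).

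**Figure D1:**
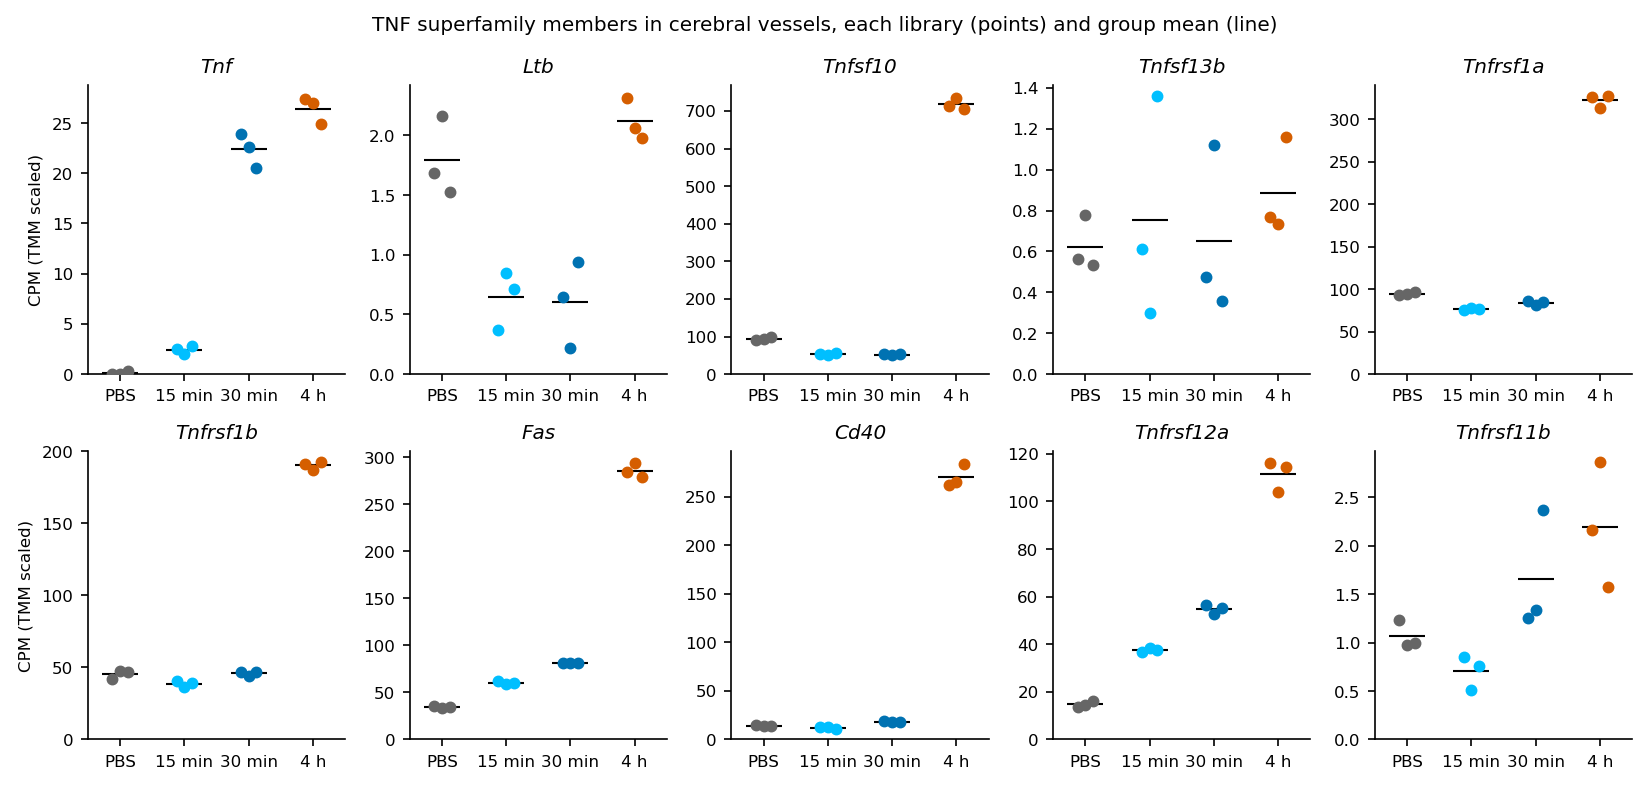
CPM of each member in each library (points) with the group mean (line), in panels with their own linear scale from 0, for PBS and the 3 LPS times. The 3 libraries at 4 h stood above all others for Tnfsf10 (705 to 734 CPM), Cd40 (262 to 284 CPM), Tnfrsf1a, Tnfrsf1b, Fas and Tnfrsf12a, while points of Tnfsf13b overlapped between groups.

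Tnf was the one member ligand called higher at 15 min, and its rise was the largest of the 10 members at each time. Tnf (chr17:35199381-35202007, minus strand) encodes the cytokine that binds both TNF receptors. Its rounded counts were 1, 0 and 8 in PBS, 74, 47 and 75 at 15 min, 552, 526 and 460 at 30 min, and 355, 406 and 365 at 4 h. PBS was thus nearly without Tnf fragments, and every LPS library stood above every PBS library. The corresponding levels were 0.0375, 0 and 0.305 CPM in PBS, where the count of 0 allows up to 0.101 CPM, then 2.51, 2.00 and 2.83 CPM at 15 min, 23.9, 22.6 and 20.6 CPM at 30 min, and 27.4, 27.0 and 24.9 CPM at 4 h.

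The log2 difference of Tnf from PBS was 4.43 ± 0.385 (SE, n = 3 libraries per group) at 15 min, with an edgeR adjusted p of 5.97e-08. It was 7.61 ± 0.281 at 30 min (edgeR adjusted p = 1.52e-15) and 7.85 ± 0.281 at 4 h (edgeR adjusted p = 9.06e-17). PBS replicate 3 held 8 of the 9 PBS counts, and without it the differences were 6.72, 9.91 and 10.14, so the size of the change from PBS rested on that library and its call did not. From 15 to 30 min Tnf increased by a further 3.18 ± 0.173 on the log2 scale (edgeR adjusted p = 1.63e-11), with no overlap of libraries. This call was lost with limma on the normalized table (3.19, limma adjusted p = 0.0518), where the adjusted p ran from 1.14e-78 to 0.0518 over the alternatives. From 30 min to 4 h the difference was 0.24, with an interval of 1.96 SE from -0.04 to 0.52, and it was not called.

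On the TPM scale, where no TMM factor enters, Tnf ran from 18.5 to 21.8 at 30 min and from 14.7 to 16.4 at 4 h, and the library size fit gave -0.30 for this last step. The direction between 30 min and 4 h therefore turned with the scaling. All Tnf fragments of the LPS libraries were assigned to transcript Tnf-201, and those of PBS replicates 1 and 3 to Tnf-202, which starts and ends inside Tnf-201. At 15 min the 7 neutrophil markers summed to 1.02 to 1.59 CPM (2.36 to 2.82 in PBS), with 1 called lower. At 30 min they summed to 3.36 to 5.98 CPM, with none called. The 4 monocyte markers summed to 63.3 to 68.9 CPM at 15 min and 68.4 to 77.3 CPM at 30 min (38.7 to 47.9 in PBS). None of these was called at 15 min and 1 was called higher at 30 min. Their log2 differences went both ways, from -1.23 to 0.72 at 15 min and from -1.19 to 0.88 at 30 min. Perivascular macrophage markers summed to 85.5 to 90.4 and 117 to 126 CPM (97.1 to 106 in PBS), with none called at 15 min and 1 of 4 higher at 30 min. Microglial markers summed to 147 to 149 and 147 to 156 CPM (159 to 164 in PBS), with none called at 15 min and 1 of 8 lower at 30 min. The part of these cells in the Tnf level was not tested.

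Tnfsf10, which encodes TRAIL, a ligand of death receptors, fell and then rose. It stood at 89.7, 94.7 and 99.2 CPM in PBS, at 54.6, 51.7 and 57.2 CPM at 15 min, at 54.3, 49.9 and 52.3 CPM at 30 min and at 714, 734 and 705 CPM at 4 h. All early LPS libraries lay below PBS and all 4 h libraries above it. Tnfsf10 fell by 0.79 on the log2 scale at 15 min (SE 0.0409, edgeR adjusted p = 0.000128) and by 0.86 at 30 min (SE 0.0419, edgeR adjusted p = 4.54e-06). At 4 h it was 2.92 ± 0.0375 above PBS (edgeR adjusted p = 6.59e-25). The step from 30 min to 4 h was 3.78 ± 0.0405 (edgeR adjusted p = 1.59e-26), a 13.8-fold difference.

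The estimated makeup of Tnfsf10 by transcript also differed at 4 h. GENCODE M21 annotates Tnfsf10-201 with 5 exons and 873 coding bases, and Tnfsf10-202 with 6 exons, 684 coding bases and a last exon at chr3:27342155-27342427. Tnfsf10-202 took 7.29%, 2.12% and 3.43% of the Tnfsf10 TPM in PBS, 6.89%, 0.937% and 4.63% at 15 min, 3.77%, 9.36% and 8.05% at 30 min, and 22.1%, 24.5% and 26.5% at 4 h. The 3 shares at 4 h lay above the other 9. Tnfsf10-201 still held most of the level at 4 h, at 120 TPM on average against 38.7 TPM for Tnfsf10-202. Transcripts of a gene share reads, so these shares are estimates, and they were not tested.

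**Figure D2:**
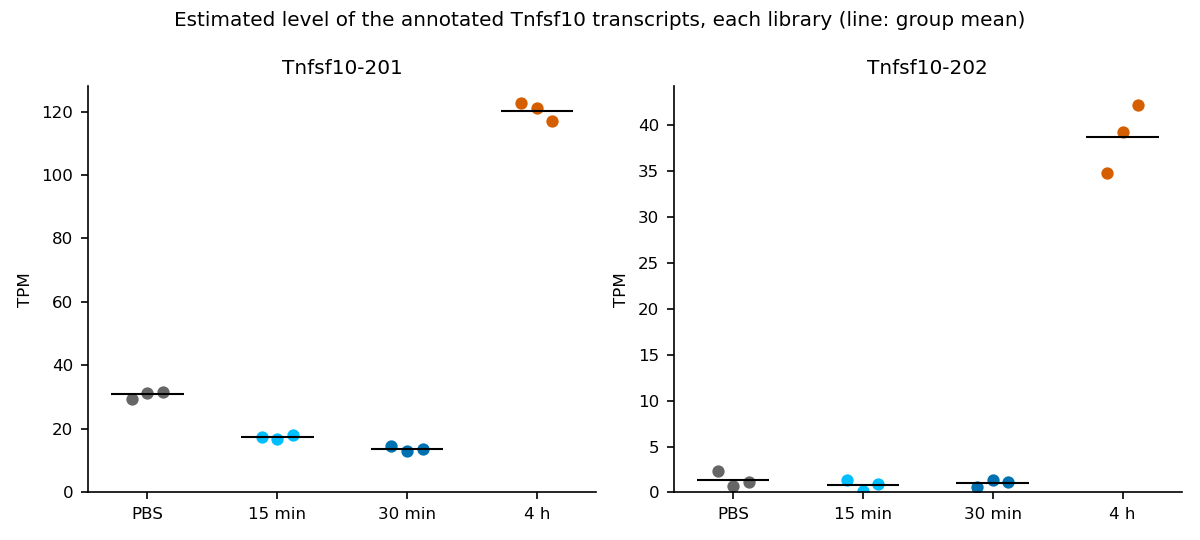
Estimated TPM of Tnfsf10-201 and Tnfsf10-202 in each library (points) with group means (lines), on separate linear axes from 0. Tnfsf10-202 averaged 1.37 TPM in PBS and 38.7 TPM at LPS 4 h, and Tnfsf10-201 went from 30.9 to 120 TPM.

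Ltb encodes lymphotoxin β, a membrane ligand that pairs with lymphotoxin α and binds the lymphotoxin β receptor. Counts were low: 45, 64 and 40 in PBS, 11, 20 and 19 at 15 min, 15, 5 and 21 at 30 min, and 30, 31 and 29 at 4 h. In CPM these were 1.69, 2.16 and 1.53 in PBS, 0.373, 0.850 and 0.717 at 15 min, 0.650, 0.215 and 0.939 at 30 min, and 2.31, 2.06 and 1.98 at 4 h. The early LPS libraries all lay below PBS, and those at 4 h overlapped it. The log2 difference from PBS was -1.48 ± 0.385 at 15 min (edgeR adjusted p = 0.0835) and -1.57 ± 0.395 at 30 min (edgeR adjusted p = 0.0587), and neither was called. Between 30 min and 4 h Ltb rose by 1.81 ± 0.409 (edgeR adjusted p = 0.00404).

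The early values of Ltb sat near the threshold. At 15 min Ltb was called without the filter on low counts (edgeR adjusted p = 0.0492) and in a fit of only the groups compared (0.0473), and over all alternatives the adjusted p ran from 0.00365 to 0.657. At 30 min it was called with scaling by library size alone (-1.74, edgeR adjusted p = 0.0256), without the filter (0.0272) and without LPS 30 min replicate 3 (-2.04, edgeR adjusted p = 0.0207), in a range over the alternatives from 0.00297 to 0.235. The 5 T cell markers summed to 4.91 to 5.15 CPM in PBS, 2.78 to 3.32 at 15 min, 3.16 to 3.75 at 30 min and 2.26 to 3.96 at 4 h. Of these, 4 passed the filter, none was called at 15 or 30 min, and 1 was called lower at 4 h. The part of T cells in the Ltb level was not tested.

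Tnfsf13b encodes BAFF, a survival factor for B cells. Its counts ranged from 14 to 23 in PBS, 7 to 36 at 15 min, 8 to 26 at 30 min and 10 to 17 at 4 h, and all groups overlapped. An antisense gene model inside it held 0.0833 counts on average. The log2 difference from PBS was 0.28 ± 0.504 for 15 min, 0.06 ± 0.519 for 30 min and 0.50 ± 0.532 for 4 h, with an interval of -0.54 to 1.54 at 4 h. No change was detectable at this depth, and the intervals leave room for a difference of more than 1.5-fold.

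The receptors for TNF itself were expressed in PBS and rose late. Tnfrsf1a, the receptor with a death domain that most cells carry, stood at 93.7, 94.0 and 96.6 CPM in PBS, 75.7, 77.9 and 76.8 CPM at 15 min, 86.1, 81.0 and 85.1 CPM at 30 min, and 327, 313 and 327 CPM at 4 h. Its early libraries lay just below PBS without overlap and those at 4 h far above. The log2 difference was -0.30 ± 0.0335 at 15 min and -0.17 ± 0.0336 at 30 min, inside the 1.5-fold limit of the test, so neither was called. The quasi-likelihood test against no change called both (edgeR adjusted p = 1.32e-07 and 0.000274). At 4 h it was 1.77 ± 0.0320 (edgeR adjusted p = 1.33e-20).

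Tnfrsf1b, the receptor without a death domain that signals through TRAF2, read 41.7, 47.2 and 46.5 CPM in PBS, 40.4, 36.4 and 39.2 CPM at 15 min, 47.0, 44.1 and 46.7 CPM at 30 min, and 191, 187 and 192 CPM at 4 h. PBS and 30 min overlapped, and the 15 min libraries lay just below PBS. The log2 difference was -0.22 ± 0.0510 for 15 min and 0.02 ± 0.0508 for 30 min, neither called, and 2.08 ± 0.0476 for 4 h, which was called (edgeR adjusted p = 4.00e-19). For both receptors, the step from 30 min to 4 h was called as well, at 1.94 ± 0.0328 for Tnfrsf1a (edgeR adjusted p = 2.12e-21) and 2.05 ± 0.0483 for Tnfrsf1b (edgeR adjusted p = 9.78e-19).

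Fas and Tnfrsf12a rose from 15 min on. Fas, the death receptor for Fas ligand, stood at 35.6, 33.9 and 34.8 CPM in PBS, 62.1, 59.2 and 59.8 CPM at 15 min, 81.3, 81.3 and 81.7 CPM at 30 min, and 284, 294 and 279 CPM at 4 h. No 2 groups overlapped, and each time stood above the one before. The log2 difference from PBS was 0.80 ± 0.0386 at 15 min (edgeR adjusted p = 4.94e-05), 1.23 ± 0.0380 at 30 min (3.27e-13) and 3.04 ± 0.0367 at 4 h (1.99e-25). The 15 min call was lost with limma on the normalized table (0.75, limma adjusted p = 0.297), where the alternatives ran from 1.13e-13 to 0.297. The step from 15 to 30 min, 0.43 ± 0.0359, was not called, and that from 30 min to 4 h was 1.81 ± 0.0340 (edgeR adjusted p = 2.78e-20). Gene models that overlap Fas held at most 0.333 counts on average.

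Tnfrsf12a encodes Fn14, the receptor of the ligand TWEAK. Its levels were 13.7, 14.6 and 16.0 CPM in PBS, 36.9, 38.5 and 37.7 CPM at 15 min, 56.4, 52.5 and 55.2 CPM at 30 min, and 116, 104 and 114 CPM at 4 h. Again no groups overlapped. The log2 difference from PBS was 1.35 ± 0.0627 at 15 min (edgeR adjusted p = 3.18e-10), 1.89 ± 0.0614 at 30 min (7.09e-15) and 2.92 ± 0.0604 at 4 h (9.98e-21). From 30 min to 4 h it rose by 1.03 ± 0.0530 (edgeR adjusted p = 1.53e-08), a call that was lost with scaling by library size alone (0.49, edgeR adjusted p = 1, in a range over the alternatives from 2.45e-17 to 1).

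Cd40, a costimulatory receptor of antigen-presenting cells that endothelium can also carry, had the largest late rise among the 6 member receptors. It read 15.0, 13.7 and 13.9 CPM in PBS, 13.2, 12.7 and 10.5 CPM at 15 min, 19.0, 18.1 and 18.3 CPM at 30 min, and 262, 265 and 284 CPM at 4 h. The 30 min libraries lay a little above PBS, those at 15 min a little below, and neither difference (0.38 ± 0.0714 and -0.23 ± 0.0748 on the log2 scale) was called. At 4 h the difference was 4.25 ± 0.0581 (edgeR adjusted p = 8.73e-25), 19.0-fold. The step from 30 min was 3.87 ± 0.0574 (edgeR adjusted p = 7.07e-24).

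Tnfrsf11b encodes osteoprotegerin, a secreted decoy receptor for RANKL and TRAIL. Its counts were 33, 29 and 26 in PBS, 25, 12 and 20 at 15 min, 29, 31 and 53 at 30 min, and 28, 43 and 23 at 4 h. In CPM the 4 h libraries (2.16, 2.86 and 1.57) lay above the PBS libraries (1.24, 0.978 and 0.992). The log2 difference was -0.58 ± 0.352 for 15 min, 0.63 ± 0.329 for 30 min and 1.04 ± 0.335 for 4 h, where the edgeR adjusted p was 0.0849. Without LPS 4 h replicate 3, the lowest of its group, the value at 4 h was 1.23 and it was called (edgeR adjusted p = 0.0406). Over the alternatives the value at 4 h ran from 0.34 to 1.05, with an adjusted p from 0.00903 to 0.726. On the TPM scale, where no TMM factor enters, 4 h (0.513 to 0.923) overlapped PBS (0.600 to 0.782).

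The early calls of Tnfsf10, Fas and Tnfrsf12a stood beside shifts in several marker lists. At 15 min the smooth muscle markers summed to 1488 to 1508 CPM (2346 to 2382 in PBS, 2111 to 2159 at 30 min), with 3 of 4 called lower at 15 min and none at 30 min. The fibroblast sum was 313 to 331 CPM at 15 min and 380 to 390 CPM at 30 min (434 to 458 in PBS), with 1 of 5 lower at each time. The neuronal sum was 507 to 520 CPM at 15 min (339 to 351 in PBS), with 2 of 6 higher, and 319 to 321 CPM at 30 min, with none called. Erythroid markers summed to 3477 to 3618 CPM at 15 min and 4437 to 4663 CPM at 30 min (2317 to 2492 in PBS), with 2 and 4 of 5 higher. Astrocyte markers summed to 242 to 271 CPM at 15 min, with 1 of 5 lower, and to 402 to 431 CPM at 30 min, with 2 higher (362 to 390 in PBS). The endothelial sum was 9262 to 9324 CPM at 15 min and 10045 to 10106 CPM at 30 min, with 1 of 7 higher and 2 lower at each time. The marker called higher was Slc2a1, at 4455 CPM on average at 15 min and 5514 CPM at 30 min (2735 in PBS). All libraries of both times lay below PBS for Pecam1, Cdh5, Cldn5, Tek, Kdr and Flt1. None of the pericyte, platelet or oligodendrocyte markers was called at either early time. The part of these cells in the early member calls was not tested.

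The 7 members called at 4 h were also called higher when scaled by library size alone, with log2 differences from 1.06 (Tnfrsf1a) to 7.15 (Tnf). At 4 h, 6 of 7 neutrophil markers were called higher and their sum was 196 to 200 CPM (2.36 to 2.82 in PBS), while the defining marker Ly6g held 15 counts over all 12 libraries and was not tested. Of the 4 monocyte markers 3 were higher, summing to 135 to 139 CPM (38.7 to 47.9 in PBS), and of the 4 perivascular macrophage markers 2, summing to 154 to 158 CPM (97.1 to 106 in PBS). The microglial sum was lower, at 97.2 to 103 CPM against 159 to 164 in PBS, with 4 of 8 markers called lower. Erythroid markers were higher in 5 of 5 (6941 to 7306 CPM against 2317 to 2492), and astrocyte markers in 3 of 5 (930 to 978 CPM against 362 to 390). Platelet markers were higher in 2 of 4 (49.2 to 54.0 CPM against 27.8 to 31.0 in PBS). Lower calls at 4 h were made for 2 of 5 fibroblast, 1 of 6 pericyte, 1 of 6 neuronal and 2 of 4 oligodendrocyte markers. Of all genes, 13.9% were called lower at 4 h. The fibroblast, pericyte and neuronal sums lay below PBS, while the oligodendrocyte sum lay above it (377 to 393 CPM against 322 to 336). The part of these cells in the members' rises was not tested.

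**Figure D3:**
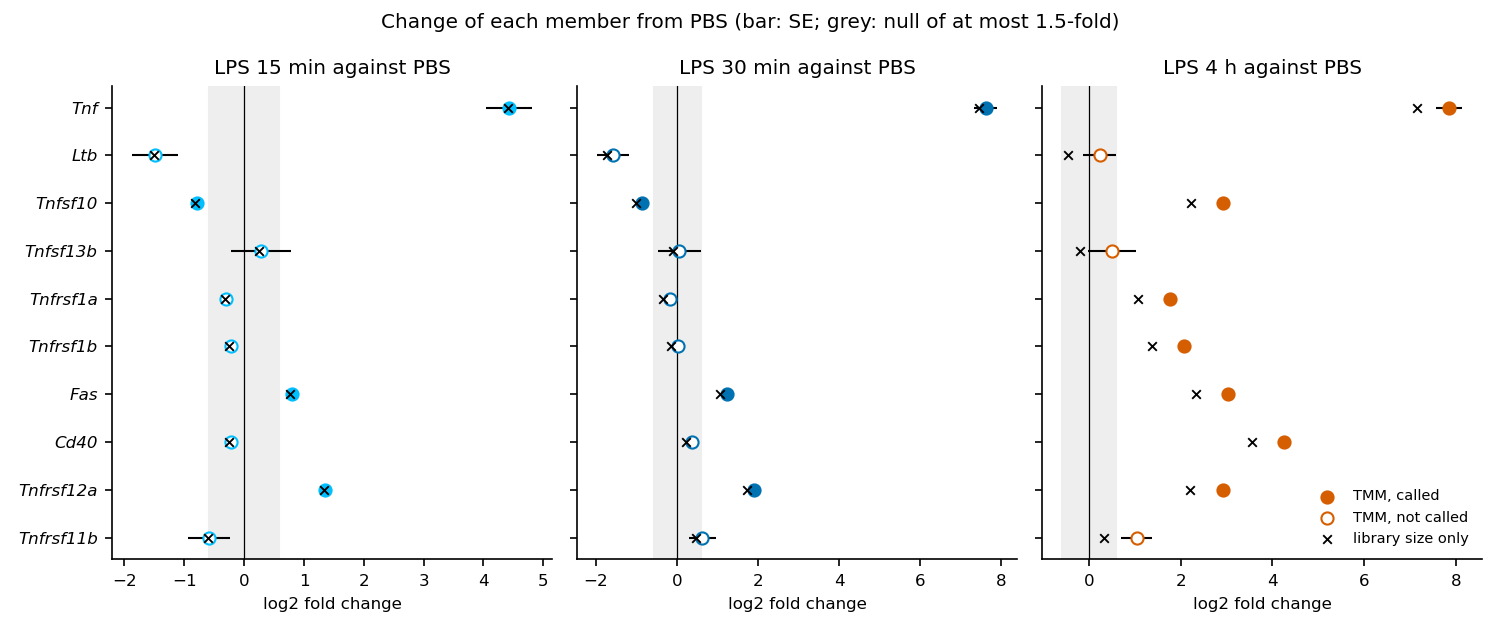
Log2 fold change from PBS of each member at the 3 LPS times (circles with SE; filled where called), with the value under scaling by library size alone (crosses) and the 1.5-fold limit of the test in grey. Tnf lay farthest right at each time (4.43, 7.61 and 7.85), Tnfsf10 crossed from -0.86 at 30 min to 2.92 at 4 h, and the crosses at 4 h lay to the left of the circles.

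From 15 to 30 min 1 member (Tnf) was called, where 4.76% of all genes were called (2.77% higher, 1.99% lower), and the libraries of 7 members did not overlap, against 47.6% of all genes. In this step scaling by library size alone shifted the median of all genes by -0.14 and took the share of calls that were higher from 58.2% to 37.1%, and Tnf remained the 1 member called. From 30 min to 4 h 7 members were called, where 28.9% of all genes were (17% higher, 11.9% lower), and 8 did not overlap, against 67.5%. The 7 called were Ltb, Tnfsf10, Tnfrsf1a, Tnfrsf1b, Fas, Cd40 and Tnfrsf12a, each higher at 4 h. In that step the share of all calls that were higher went from 58.8% to 21.7% with scaling by library size alone, under which 6 members were called, all higher.

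The order of the members by TPM changed between groups. In PBS, Tnfrsf1a led with 78.0 ± 1.77 TPM (SD, n = 3), followed by Fas with 49.6 ± 4.12, Tnfrsf12a with 33.2 ± 2.80 and Tnfsf10 with 32.2 ± 0.483, of which the last pair overlapped. Tnfrsf1b (20.3 ± 0.690 TPM) and Cd40 (18.0 ± 1.81 TPM) came next without overlap. Ltb had 3.19 ± 0.391 TPM, and Tnfrsf11b, Tnfsf13b and Tnf, at 0.666, 0.645 and 0.145 TPM on average, overlapped with their neighbours.

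At 15 min Tnfrsf12a (84.0 ± 1.26 TPM) and Fas (83.8 ± 1.64 TPM) led and overlapped, above Tnfrsf1a (62.8 ± 0.848 TPM). The same order held at 30 min, with 99.2 ± 4.51 TPM for Tnfrsf12a, 93.8 ± 1.97 for Fas and 56.0 ± 2.18 for Tnfrsf1a. Tnf had by then reached 20.2 ± 1.67 TPM, in the range of Cd40 (18.4 ± 1.16 TPM), which in turn overlapped Tnfrsf1b (16.2 ± 1.05 TPM). At 4 h Fas led with 218 ± 5.29 TPM, above Cd40 (180 ± 15.3 TPM), Tnfsf10 (159 ± 1.49 TPM), Tnfrsf1a (143 ± 2.66 TPM) and Tnfrsf12a (132 ± 7.67 TPM), with no overlap between neighbours. Tnf, at 15.7 ± 0.899 TPM, stood below Tnfrsf1b (43.6 ± 0.826 TPM) and above Ltb (1.98 ± 0.394 TPM).

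**Figure D4:**
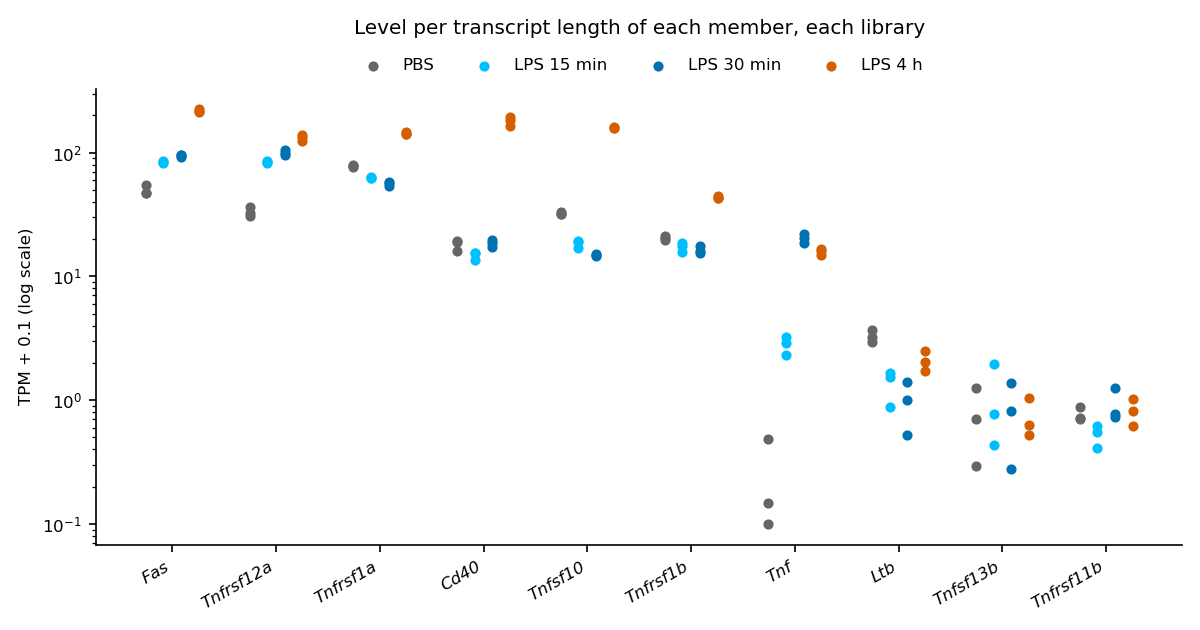
TPM plus 0.1 of each member in each library (points, coloured by group) on a log axis, members ordered by their mean over the groups. Cd40 went from 18.0 TPM in PBS to 180 TPM at LPS 4 h, and Ltb, Tnfsf13b and Tnfrsf11b stayed below 4 TPM in all libraries.

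The rest of the family and pathway was read from lists of 69 further genes, of which 58 were tested. At 15 min 2 were called higher and 3 lower, at 30 min 8 higher and 0 lower, and at 4 h 28 higher and 9 lower, with medians of -0.05, -0.08 and 0.83 on the log2 scale (Tnfsf15 left out at the early times and entered at its lower bound at 4 h). These counts are to be read against the 4.25%, 4.62% and 33% of all genes called. With scaling by library size alone the counts were 6 higher and 1 lower at 30 min and 22 higher and 18 lower at 4 h, and no gene called with TMM scaling changed sign.

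Of the 14 other ligands 6 passed the filter. Tnfsf9, which encodes the ligand of 4-1BB, rose by 3.22 ± 0.290 at 30 min (edgeR adjusted p = 1.03e-07) and was 5.72 ± 0.265 above PBS at 4 h (edgeR adjusted p = 1.66e-14). Tnfsf8, the CD30 ligand, was higher at 4 h by 7.19 ± 0.402 (edgeR adjusted p = 5.03e-13), from PBS counts of 1, 4 and 7. Tnfsf12, the gene of the Fn14 ligand TWEAK, was lower at 4 h by -1.99 ± 0.0751 (edgeR adjusted p = 1.18e-14), at the time its receptor gene Tnfrsf12a was higher. Tnfsf15, the gene of TL1A, had 0 counts over the PBS libraries and 80 over those at 4 h, at least 51.1-fold higher when the PBS group as a whole is set to a floor of 3 counts. Tnfsf13, the gene of APRIL, was lower by -2.11 ± 0.241 (edgeR adjusted p = 1.52e-06). Lta, Tnfsf4, Cd40lg, Fasl, Cd70, Tnfsf11, Tnfsf14 and Tnfsf18 did not pass the filter, with at most 13 counts in a library; Cd40lg, the ligand gene for Cd40, had 0 and Fasl, that for Fas, had 53 over all 12 libraries.

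Of the 22 other receptors 19 passed the filter, with 1 called higher and 2 lower at 15 min, 2 and 0 at 30 min, and 6 and 4 at 4 h. The shares of all genes at these times were 3.35%, 3.8% and 19.1% called higher and 0.898%, 0.815% and 13.9% lower. Tnfrsf9, the receptor 4-1BB, was higher at 4 h by 5.66 ± 0.246 (edgeR adjusted p = 4.57e-15) and Tnfrsf11a, the receptor RANK, by 3.82 ± 0.0654 (edgeR adjusted p = 9.16e-23). Tnfrsf10b, a TRAIL receptor gene, rose by 1.49 ± 0.0795 at 30 min (edgeR adjusted p = 6.24e-10), when Tnfsf10 was below PBS. It was 1.71 ± 0.0816 above PBS at 4 h (edgeR adjusted p = 2.19e-12), when Tnfsf10 was above PBS too. Tnfrsf25, a death receptor, was higher at 15 min by 1.20 ± 0.0791 (edgeR adjusted p = 5.15e-07). At 30 min it was higher by 0.81 ± 0.0813 (edgeR adjusted p = 0.0275), a call that was lost with scaling by library size alone. It was lower at 4 h by -1.86 ± 0.117 (edgeR adjusted p = 2.31e-10). Tnfrsf19 was lower at 15 min (-0.70 ± 0.0338, edgeR adjusted p = 0.00626) and at 4 h (-2.61 ± 0.0427, edgeR adjusted p = 1.68e-22). Edar, the ectodysplasin receptor, was lower at 15 min (-1.43 ± 0.298, edgeR adjusted p = 0.0280) and higher at 4 h (1.04 ± 0.269, edgeR adjusted p = 0.0450), the latter not called with scaling by library size alone (0.33, edgeR adjusted p = 0.767). Tnfrsf22, which may share reads with its close paralogs, was lower at 4 h (-2.17 ± 0.147, edgeR adjusted p = 3.43e-10). Cd27, Tnfrsf13c and Tnfrsf17 did not pass the filter.

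Of the 24 receptor-proximal signalling genes 1 was called higher at 15 min, 3 at 30 min and 12 at 4 h, and 2 were lower at 4 h. Of all genes, 3.35%, 3.8% and 19.1% were called higher at these times, and 13.9% were lower at 4 h. Tnfaip3, the gene of the ubiquitin-editing inhibitor A20, was called at each time, at 1.44 ± 0.0462, 5.11 ± 0.0401 and 6.23 ± 0.0406 above PBS, with edgeR adjusted p of 1.60e-13, 8.33e-29 and 6.56e-31. Birc3 and Birc2, the cIAP ubiquitin ligases of the receptor complex, were 4.77 ± 0.0527 and 3.74 ± 0.0318 above PBS at 4 h, and both were called. Birc3 had risen by 1.24 ± 0.0599 at 30 min (edgeR adjusted p = 1.16e-09), and Traf1, an adaptor gene, by 0.83 ± 0.0831 (edgeR adjusted p = 0.0162), which scaling by library size alone did not call (0.67). Tradd, the adaptor of the death domain of Tnfrsf1a, was lower at 4 h (-1.27 ± 0.167, edgeR adjusted p = 0.000208), and so was Tab1 (-0.85 ± 0.0817, edgeR adjusted p = 0.00125).

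**Figure D5:**
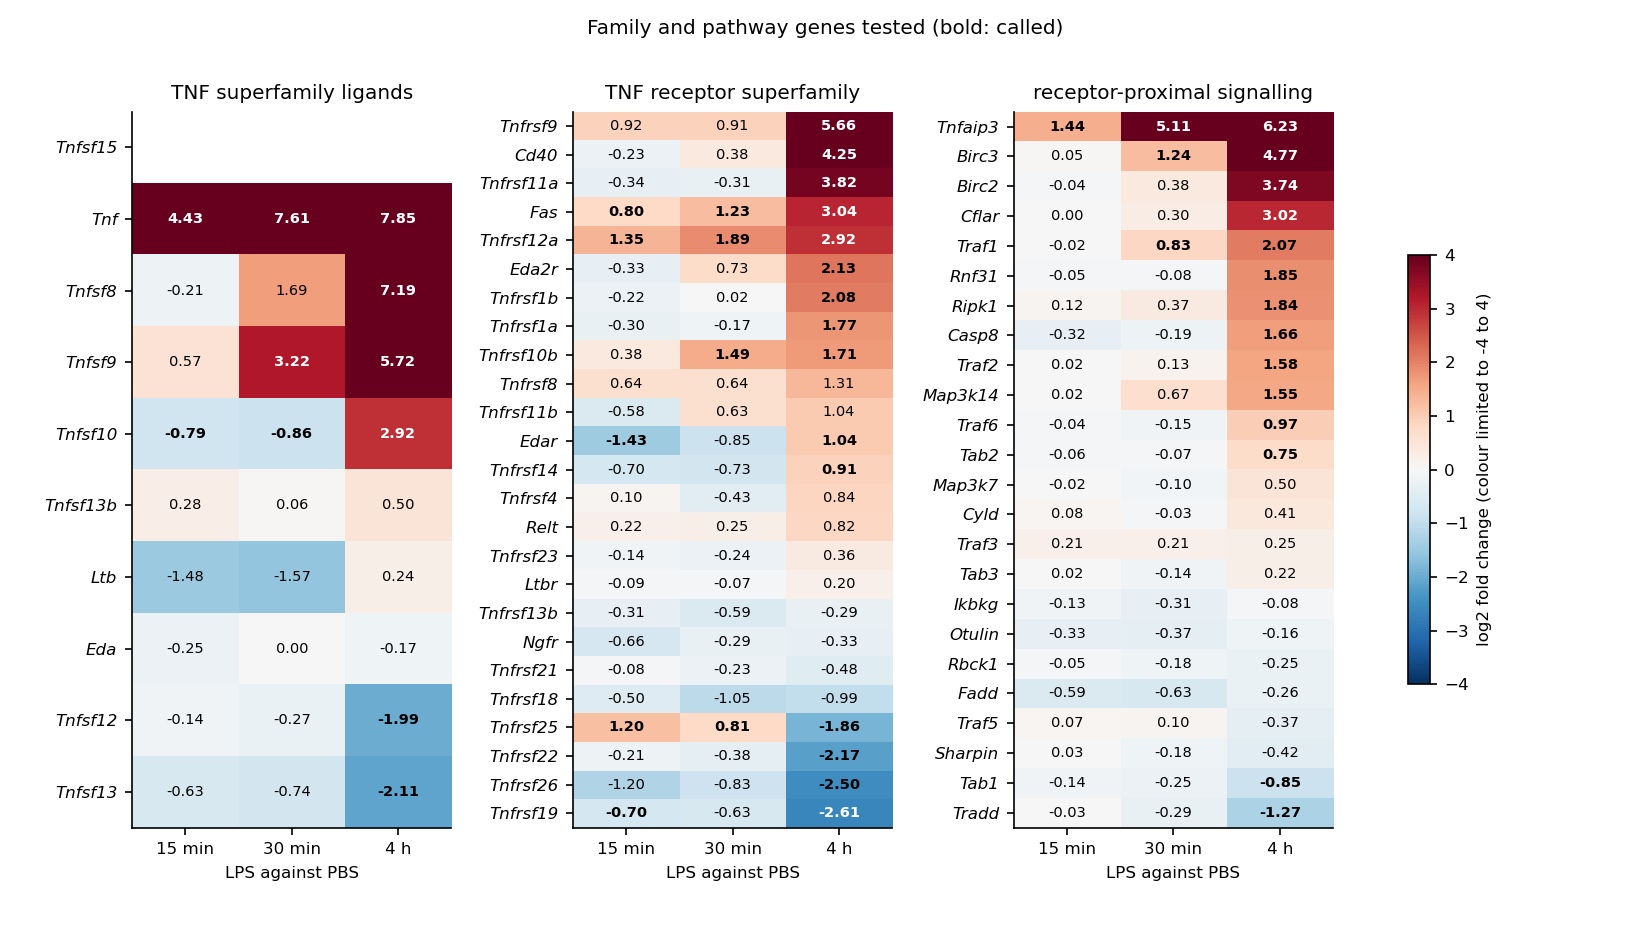
Log2 fold change from PBS at the 3 LPS times of the TNF superfamily ligands, receptors and receptor-proximal signalling genes tested, members included (numbers in cells, bold where called; colour limited to -4 to 4; blank for Tnfsf15, which had 0 counts in PBS). At 4 h the ligands shown ran from -2.11 (Tnfsf13) to 7.85 (Tnf), and 12 signalling genes were called higher and 2 lower.

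For each member, the genes most like it were those with the smallest root mean square difference of the 3 log2 differences from PBS, over 13422 genes compared. For Tnf the nearest were Ch25h (1.42), Atf3 (1.46) and Sele (1.48). These distances rest on the 9 PBS counts of Tnf, whose differences moved to 6.72, 9.91 and 10.14 without PBS replicate 3. For Ltb they were Ccr2 (0.282), Dkk2 (0.312) and Fam205a3 (0.363). Ccr2, a chemokine receptor on monocytes, differed from PBS by -1.23, -1.19 and 0.38, of which none was called. For Tnfsf10 they were Themis2 (0.176), Exoc3l4 (0.185) and Abtb2 (0.254), and for Tnfsf13b Fam49a (0.0237), Pknox2 (0.0308) and Atp8b2 (0.0349). The distances of Tnfsf13b lay far below the SEs of its differences from PBS (0.504 to 0.532), and those of Ltb had SEs of 0.362 to 0.395. None of the differences of Tnfsf13b or Ltb from PBS was called.

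Among the receptors, Tnfrsf1a was most like Il6st (0.0214), the shared receptor subunit of the IL-6 family, then Shisa5 (0.0271) and Tspo (0.0449). Tnfrsf1b was most like Mvp (0.0361), Mocos (0.0633) and Man1a (0.0652). Fas was most like Gimap6 (0.153), Galnt15 (0.189) and Zfp948 (0.192), and Tnfrsf12a like Kcna5 (0.188), Map3k6 (0.201) and Rgcc (0.237). Cd40 was most like Msr1 (0.0396), a scavenger receptor of macrophages, Ccrl2 (0.159) and Socs1 (0.161), and Tnfrsf11b like Rd3 (0.184), Ccdc60 (0.197) and Cd9 (0.198). The differences of Tnfrsf11b from PBS had SEs of 0.329 to 0.352, above these distances, and none was called. The measure describes 3 differences that share the same PBS libraries, and no test was made on it.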

How the data were processed

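RNA of cerebral vessels was measured in 12 libraries (4 groups of 3), grouped by the treatment in the sample records; libraries are pools of separate mice. Libraries were made with SMART-Seq v4 and Nextera XT, which do not mark strand. The authors ran Salmon 1.2.1 on GRCm38.p6, and the deposited estimated counts (fragments assigned to each transcript, not normalized) and TPM values came from it. The deposited gene table, used in 1 alternative, gives a signal that the authors obtained from gene counts with size factors of DESeq2 and transcript length factors. All 12 of its columns matched their own library best.

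Transcripts were joined by identifier to GENCODE M21 (139852 of 140948; the rest held 0.482% to 0.850% of fragments), summed to genes and rounded. Depth was 18.3 to 25.9 M fragments, and TMM factors ranged from 0.715 at 4 h to 1.17 in PBS. In edgeR 4.0.16 (R 4.3.3), filterByExpr kept 19150 genes (minimum count 10, total 15, share 0.7), all 12 libraries entered 1 quasi-likelihood fit, and glmTreat tested each gene against 0.58 on the log2 scale, with Benjamini-Hochberg adjustment over all genes and a threshold of 0.05. The SE was taken as the absolute log2 fold change over the root of the quasi-likelihood F statistic, and it can be too small for large changes from few counts. The test was tested on simulated counts first. A permutation of 3 against 3 libraries cannot go below p = 0.1, so none is given for a gene. Floors and counts of 0 cover counting error only.

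Members and lists were chosen with earlier results of these data known. Named are the members; the 3 largest rises and falls of each list against PBS among called genes whose mean count was 50 or more; list genes not past the filter; and the 3 genes most like each member. Values of Cd40lg and Fasl, Tnfsf15, the single cell type markers and the TATAAA search were picked after the data were seen. The alternatives were RLE factors, library size alone, no filter, DESeq2 1.42.0, the quasi-likelihood test against no change, a length offset, only the groups compared, a replicate block, limma 3.58.1 on log2 of the gene table plus 1, and leaving out each library. Python 3.11.15 with pandas 2.3.3, numpy 2.4.6 and matplotlib 3.10.9 made tables and plots. Of the marker lists, a single list is not reported here. No columns were left unused, and no protein sequences were used here.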

Additional observations from a re-analysis of the deposited data

Results flagged for a closer look

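The changes from PBS of 8 members differed between times by the edgeR quasi-likelihood test of the difference itself (adjusted over all genes). Of all genes, 4.76% were called from 15 to 30 min and 28.9% from 30 min to 4 h. Tnf was higher at 30 min than at 15 min by 3.18 on the log2 scale, in 3 of 3 libraries (edgeR adjusted p = 1.63e-11; limma on the normalized table gave 3.19 with an adjusted p of 0.0518). From 30 min to 4 h, Cd40 differed by 3.87 and Tnfsf10 by 3.78, the latter after lying below PBS at 30 min. Tnfrsf1b differed by 2.05 and Tnfrsf1a by 1.94 in the same step, from values at 30 min within 1.5-fold of PBS. Fas and Ltb each differed by 1.81, Fas from a level already above PBS and Ltb from 5 to 21 counts per library. Tnfrsf12a differed by 1.03. All 3 libraries at 4 h stood above all 3 at 30 min for these 7 genes, and in this step 67.5% of all genes did not overlap in either direction.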

How the results depend on the processing

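Member calls against PBS numbered 4, 4 and 7 at 15 and 30 min and at 4 h, and 41 of 45 member counts under the 9 alternatives stayed within 1.5 times of these and of the counts between times. Against no change at all, the quasi-likelihood test called 8 members at 15 min, 7 at 30 min and 7 from 15 to 30 min, 21, 36 and 20 list genes, and 7393, 7066 and 7153 of all genes, and 13124 at 4 h and 12498 from 30 min to 4 h; this test drops the 1.5-fold limit. With limma on the normalized table, 0 members were called from 15 to 30 min (Tnf 3.19, limma adjusted p = 0.0518; 1 with edgeR), 375, 519 and 407 of all genes at 15 min, 30 min and from 15 to 30 min, and 2 and 5 list genes at 15 and 30 min. The length offset gave 5 list genes at 30 min, and library size alone gave 10523 and 8915 of all genes at 4 h and from 30 min to 4 h. The cause was not tested.

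Signs that turned belonged to values that were not called. With library size alone these were Tnfsf13b (-0.10 at 30 min, -0.20 at 4 h and -0.092 from 30 min to 4 h), Tnfrsf1b at 30 min (-0.14), Ltb at 4 h (-0.46), Tnfrsf1a from 15 to 30 min (-0.0095), and Tnf and Tnfrsf11b from 30 min to 4 h (-0.30 and -0.12). Tnfrsf1b at 30 min was also -0.027 with the length offset and -0.041 with limma. Leaving out 1 library moved Tnfsf13b between -0.43 (without LPS 15 min replicate 3) and 0.64 at 15 min, between -0.58 (without LPS 30 min replicate 2) and 0.35 at 30 min, and between -0.86 and 0.49 from 15 to 30 min. It moved Tnfrsf1b between -0.029 and 0.059 at 30 min, and Ltb between -0.56 and 0.31 from 15 to 30 min.

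Leaving out each library in turn gave 4 to 4, 4 to 5, 7 to 8, 1 to 1 and 7 to 7 member calls at 15 min, at 30 min, at 4 h, from 15 to 30 min and from 30 min to 4 h. List genes numbered 3 to 5, 6 to 8, 35 to 37, 5 to 7 and 32 to 34, the 3 without LPS 15 min replicate 3. Over all genes the calls numbered 707 to 750, 785 to 835, 6059 to 6252, 772 to 825 and 5293 to 5426. With all libraries these were 814, 884, 6315, 911 and 5530. The block for the replicate number changed no member count (4, 4, 7, 1 and 7). Same-numbered libraries did not deviate together (correlations from -0.06 to 0.06 over 18 pairs), so the numbers were not taken as a pairing. Depth limits Ltb, Tnfsf13b and Tnfrsf11b, with mean counts of 27.5, 16.3 and 29.3, and Tnf in PBS. Ratios to PBS for Tnf rest on 9 counts.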

Other observations

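Of 5 genes that act on the shedding of these ligands and receptors, 3 were called higher and 1 lower at 4 h, where 19.1% of all genes were called higher and 13.9% lower. Adam17, the protease that releases TNF from the membrane, was 0.92 ± 0.0425 above PBS on the log2 scale (edgeR adjusted p = 3.14e-08), and Rhbdf2, which carries ADAM17 to the cell surface, was 2.18 ± 0.0401 above it (edgeR adjusted p = 3.75e-21). Timp3, an inhibitor of ADAM17, was 0.89 ± 0.0197 above PBS at 30 min (edgeR adjusted p = 1.16e-12) and 1.20 ± 0.0198 at 4 h (edgeR adjusted p = 1.59e-19). Adam10 was lower at 4 h by -0.77 ± 0.0308 (edgeR adjusted p = 1.47e-06). With scaling by library size alone, Adam17 at 4 h was 0.22 and Timp3 0.50, and neither was called.

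The 5 genes named as TNF alpha induced proteins were all called higher at 4 h. Tnfaip2 was below PBS at 15 min by -0.90 ± 0.0640 (edgeR adjusted p = 0.000260), above it at 30 min by 1.04 ± 0.0519 (edgeR adjusted p = 4.57e-08) and at 4 h by 4.45 ± 0.0446 (edgeR adjusted p = 2.06e-27). Tnfaip6, the gene of a secreted hyaluronan-binding protein, was above PBS at 4 h by 3.46 ± 0.243 (edgeR adjusted p = 1.03e-10). All 5 were also called with scaling by library size alone, from 0.88 (Tnfaip1) to 5.53 (Tnfaip3). The share of all genes called higher at 4 h was 19.1%.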
